A study of Drosophila melanogaster with 9 samples.

Results

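The salivary glue genes Sgs1, Sgs3, Sgs4, Sgs5, Sgs7 and Sgs8 were followed over 9 single arrays of eye imaginal discs, the larval tissue from which the adult eye develops. The 6 genes were chosen from their levels on these same arrays, where they differed widely between single arrays. Each was measured by 1 probe set annotated to it alone, so 6 genes of 11983 are described. Their levels, ranges and group differences are therefore a description and carry no test.

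RNA of discs from Drosophila melanogaster larvae of the third instar was hybridised to the Affymetrix Drosophila Genome 2.0 Array, with 3 biological replicates in each of 3 groups. The rbf1 arrays held discs of the genotype rbf1120a Gal4, a mutant of the retinoblastoma family gene rbf1. The PSC arrays held discs of the genotype w1118 psc that overexpressed PSC, the Polycomb group protein Posterior sex combs. The control arrays held w1118 Gal4 discs. No driver is specified for Gal4 in the labels, Gal4 is written only for the rbf1 and control genotypes, and the age of the larvae is given no closer than the third instar. The comparisons asked how loss of rbf1 and overexpression of PSC alter expression in the eye disc.

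Glue proteins are made in the larval salivary gland during the later part of the third instar and stick the pupa to its support. Their genes are switched on under low ecdysone, the insect moulting steroid, and shut down as the ecdysone pulse that starts metamorphosis builds up. Earlier in larval life the same gland cells use another set of genes, called pre-intermoult genes, of which Pig1 lies beside Sgs4. The gland lies close to the eye-antennal discs in the front of the larva, and eye disc cells are not a known source of glue.

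All values are log2 intensities on the RMA scale, on which a difference of 1 is a 2-fold difference. They compare 1 gene between arrays and never 1 gene with another, since probes differ in brightness. Array medians lay between 5.83 and 5.92. Psc read between 12.49 and 12.53 on the PSC arrays, against 9.80 to 9.86 on the control arrays. Rbf, the gene of rbf1, read between 9.31 and 9.51 on the rbf1 arrays, against 9.67 to 9.85 on the control arrays. No scan or preparation batch is given for the arrays.

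The 6 glue genes were far from constant over the 9 arrays, and they moved together. Their mean level was 6.40, 11.75 and 7.11 on rbf1 1, 2 and 3. It was 9.53, 10.08 and 12.24 on PSC 1, 2 and 3, and 6.52, 13.10 and 13.03 on control 1, 2 and 3. Rbf1 1, control 1 and rbf1 3 were thus the lowest arrays, control 2 and control 3 the highest, and each genotype with Gal4 held both low and high arrays. The highest array exceeded the lowest 104-fold. Within the rbf1 group the highest mean was 40.9-fold above the lowest, within the PSC group 6.56-fold and within the control group 95.4-fold.

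The mucin-like glue proteins, long chains of repeats that carry sugars, include the products of Sgs1, Sgs3 and Sgs4. Sgs3 had 6.38, 12.58 and 7.23 on the rbf1 arrays, 9.74, 10.94 and 12.84 on the PSC arrays, and 6.67, 13.65 and 13.64 on the control arrays. Control 2 was 126-fold above control 1, and control 3 differed from control 2 by -0.0090. For the other glue genes this difference lay between -0.44 for Sgs1 and 0.38 for Sgs8. The highest value on any array was 14.85, and a compression of bright values was not tested. The groups overlapped, and the rbf1 and control arrays both reached from near the bottom to near the top of the range.

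Sgs4 varied most of the 6. It had 4.96, 11.92 and 7.81 on the rbf1 arrays, 9.58, 9.96 and 12.59 on the PSC arrays, and 5.56, 13.48 and 13.12 on the control arrays. Its highest array was 367-fold above its lowest, a range of 8.52 that ranked 6 among the 11983 genes. Rbf1 3 stood 7.20-fold above rbf1 1 for Sgs4, whereas for the other 5 genes rbf1 3 minus rbf1 1 lay between -0.94 and 0.86.

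Sgs1 was the dimmest probe set of the 6 on its lowest arrays, where RMA compresses differences, so its folds may be understated. It had 4.74, 8.58 and 5.22 on the rbf1 arrays, 6.58, 6.50 and 10.05 on the PSC arrays, and 4.92, 11.08 and 10.64 on the control arrays. The most common low value on these arrays was 4.15. On PSC 3 Sgs1 stood 11.1-fold above PSC 1, more than the 3.53-fold to 8.56-fold of the other 5 genes between the same arrays.

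Sgs5, Sgs7 and Sgs8 encode short glue proteins without such repeats. Sgs5 had 6.41, 12.38 and 7.27 on the rbf1 arrays, 10.23, 11.10 and 12.97 on the PSC arrays, and 6.70, 13.66 and 13.64 on the control arrays. Sgs7 had 8.01, 13.15 and 8.21 on the rbf1 arrays, 11.28, 11.96 and 13.10 on the PSC arrays, and 7.87, 13.94 and 14.01 on the control arrays. For both, as for the rest of the 6 glue genes, rbf1 1, rbf1 3 and control 1 lay below all 3 PSC arrays. Sgs8 had 7.88, 11.88 and 6.94 on the rbf1 arrays, 9.78, 10.03 and 11.91 on the PSC arrays, and 7.39, 12.77 and 13.15 on the control arrays. Sgs8 was the only member of the 6 that was lower on rbf1 3 than on rbf1 1.

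**Figure D1:**
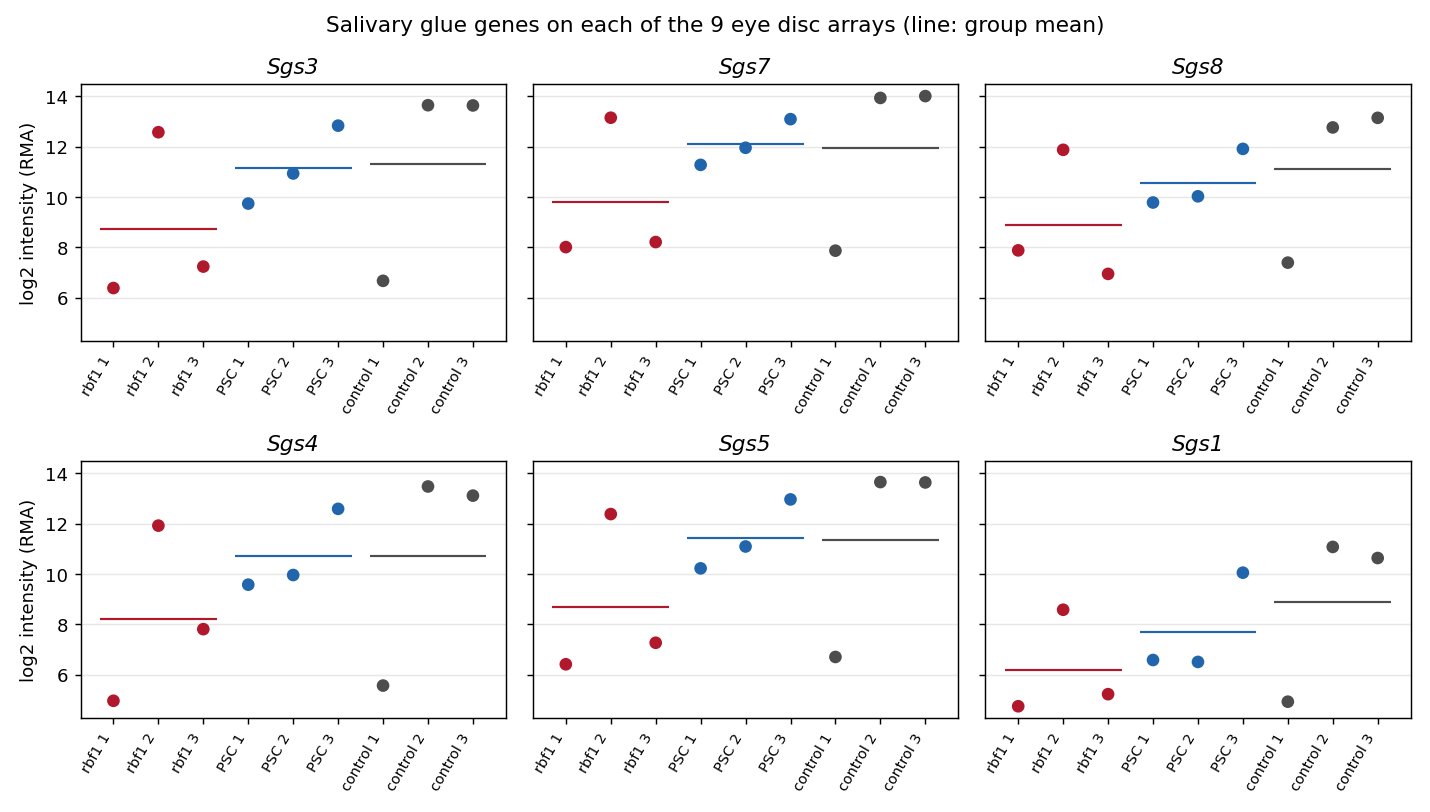
Log2 intensity (vertical axis) of each of the 6 glue genes on each of the 9 arrays (horizontal axis), with 1 point per array and a line at each group's mean. Over the 6 genes the rbf1 points span 3.84 to 6.97, the PSC points 1.82 to 3.55 and the control points 5.76 to 7.92, with the PSC points almost as far apart as the rbf1 points for Sgs1.

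Among the 15 pairs of glue genes, Pearson's r over the 9 arrays lay between 0.930 and 0.998. After the group means were taken out it lay between 0.934 and 0.999, so the shared pattern was one of single arrays within groups. These are descriptions over arrays that share genotypes and were normalised together. Sgs3 and Sgs5 followed the other 5 most closely (r = 0.997 and 0.996) and Sgs1 least (r = 0.956). The median range over all 11983 genes was 0.345, and 968 of them (8.08%) had a range of at least 1. The ranges of the 6 glue genes, 6.15 to 8.52, ranked between 6 and 44.

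The group means of the glue genes stood within this spread. The mean of the 6 averaged 8.42 ± 2.91 in the rbf1 group, 10.62 ± 1.43 in the PSC group and 10.88 ± 3.78 in the control group (SD, n = 3 each). The rbf1 minus control difference of -2.46 was smaller than the SD within either group, as was the PSC minus control difference of -0.26. The rbf1 minus PSC difference of -2.20 was smaller than the SD of the rbf1 group and larger than that of the PSC group. Neighbours in the order rbf1, PSC, control thus differed by less than the larger SD of the pair, and the arrays of all 3 groups overlapped for each of the 6 genes.

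By gene, rbf1 minus control lay between -2.70 for Sgs1 (SE 1.80) and -2.15 for Sgs7 (SE 1.87). PSC minus control lay between -1.17 for Sgs1 (SE 1.80) and 0.17 for Sgs7 (SE 1.87), and Sgs4 came to -0.011 (SE 2.37). Rbf1 minus PSC lay between -2.74 for Sgs5 (SE 2.14) and -1.53 for Sgs1 (SE 1.80). Single arrays set these sizes. For the mean of the 6, rbf1 minus control was -4.64 without control 1 and -1.36 without control 2, and -5.69 when medians over replicates took the place of means. PSC minus control was -2.45 without control 1, 0.84 without control 2 and -2.86 with medians. Rbf1 minus PSC was -3.86 without rbf1 2 and -1.19 without rbf1 1.

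**Figure D2:**
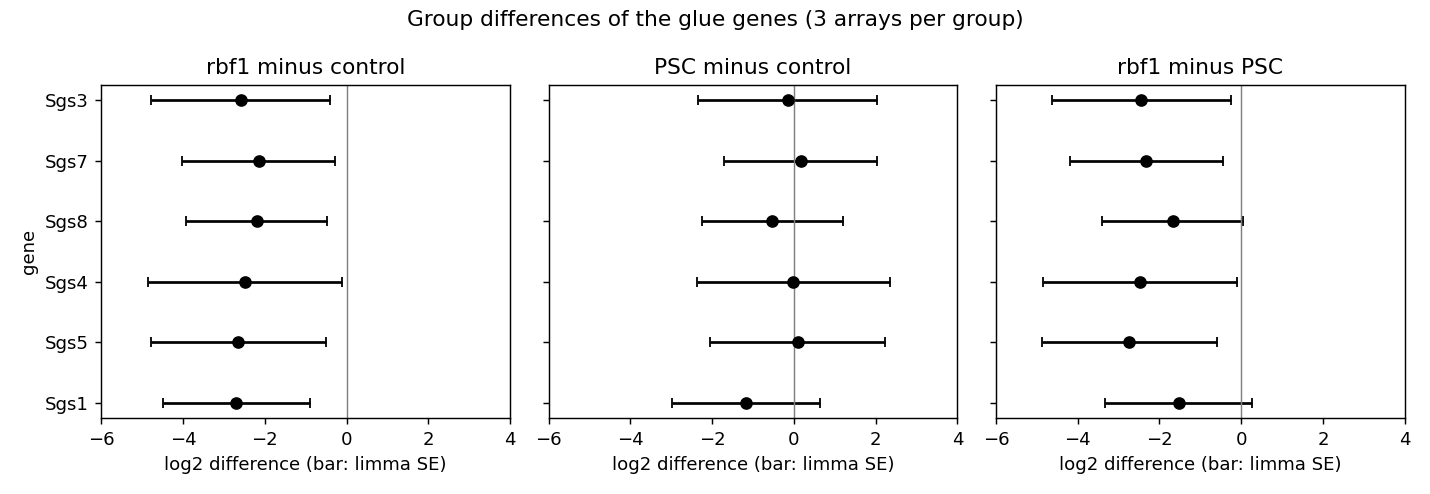
Difference between group means of each glue gene (horizontal axis, log2) for rbf1 minus control, PSC minus control and rbf1 minus PSC, with bars of 1 limma standard error and 3 arrays per group. The rbf1 minus control points lie between -2.70 and -2.15, and the bars span several log2 units in all panels.

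The genes whose pattern was most like the glue mean were few, and Eig71Ee and Sgs5bis among them are known genes of the gland's secretion. Among 962 other genes with a range of at least 1, 6 had r of at least 0.9 over the 9 arrays and 11 had at least 0.8. Eig71Ee (r = 0.988), a mucin-like gene of the salivary gland, had 5.54, 10.18 and 6.57 on the rbf1 arrays, 8.94, 8.42 and 11.68 on the PSC arrays, and 5.77, 12.48 and 12.14 on the control arrays. CG7606 (r = 0.985) read between 8.38 and 10.04 on the PSC arrays, was lowest on control 1 (6.60) and highest on control 2 (11.38). Both were low on rbf1 1, rbf1 3 and control 1 and high on control 2 and control 3.

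CG31698 (r = 0.980), Sgs5bis (r = 0.976), a relative of Sgs5, CG15404 (r = 0.966) and CG34279 (r = 0.943) followed, with ranges between 5.15 and 6.88. Sgs5bis had 4.86, 8.41 and 5.19 on the rbf1 arrays, 7.10, 7.60 and 10.51 on the PSC arrays, and 5.28, 10.50 and 9.84 on the control arrays. The seventh was sage (r = 0.891), which encodes a transcription factor that with Forkhead directs the gland's secretory genes. It had 7.25, 8.76 and 7.63 on the rbf1 arrays, 8.56, 7.65 and 9.64 on the PSC arrays, and 7.54, 9.29 and 8.88 on the control arrays. Its range of 2.39 was far narrower than those of the glue genes. Its order of arrays was that of the glue mean except that PSC 3 was highest and PSC 2 stood below PSC 1, near the low arrays.

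The other 8 of the 15 most like genes were CG12715 (0.886), the tetraspanin genes Tsp29Fa (0.841) and Tsp29Fb (0.813), the amino acid transporter gene NAAT1 (0.801), the cecropin gene CecB (0.798), the protease gene Sb (0.779), the alkaline phosphatase gene Alp1 (0.769) and CG43084 (0.764). For CecB, Sb, Alp1 and CG43084 the likeness rested partly on the 2 arrays farthest from the median glue level. Without those arrays r was 0.531, 0.429, 0.514 and 0.579 for these 4, against 0.926 to 0.982 for the first 6 genes. The 5 least like genes were CG18304 (r = -0.749), CG31875, CG9812, CG13833 and Cyp313a2 (r = -0.697), with ranges of 1.01 to 1.62.

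The genes beside the glue genes on the chromosome were read for the same pattern. In the order of gene starts, Sgs8 and Sgs7 are next to each other and 1 gene, CG33272, starts between Sgs7 and Sgs3. CG33272 had a range of 0.58 (r = 0.765), against 6.15 for Sgs7 and 7.27 for Sgs3. Sgs5 lies between Sgs5bis and CG7606, both among the 6 most like genes, whereas the next gene, sll, had a range of 0.12 and Hmx on the other side one of 0.14. The 8 genes nearest Sgs1 had ranges of 0.12 to 0.81 and r between -0.349 and 0.100.

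**Figure D3:**
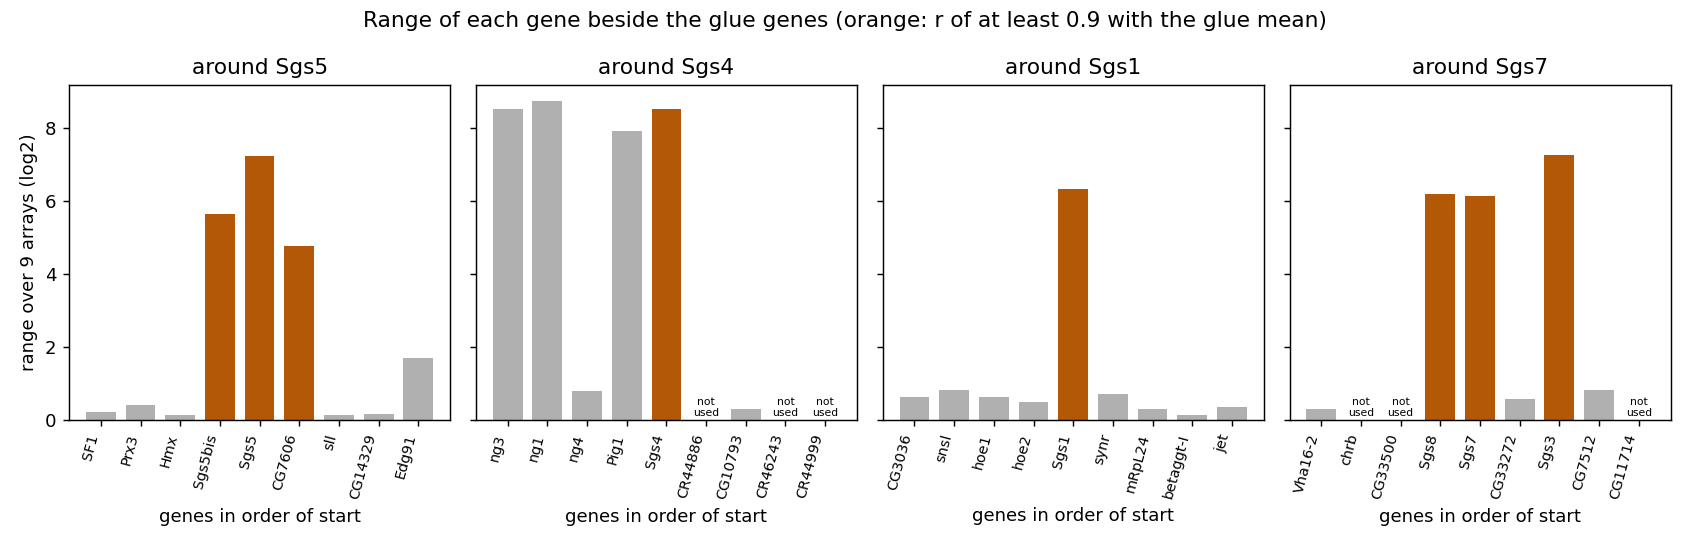
Range over the 9 arrays (vertical axis, log2) of the 4 genes on each side of Sgs5, Sgs4, Sgs1 and Sgs7 in the order of their starts, with genes that were not used marked as such. Orange bars, for r of at least 0.9 with the glue mean, take in Sgs5bis and CG7606 beside Sgs5, while ng3, ng1 and Pig1 beside Sgs4 are as tall as Sgs4 but grey.

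Sgs4 had neighbours of another kind. Pig1, a pre-intermoult gene, is next to it, and the new-glue genes ng4, ng1 and ng3 follow, all genes of the salivary gland. Ng1 had 3.75, 7.39 and 11.30 on the rbf1 arrays, 10.46, 3.81 and 9.89 on the PSC arrays, and 4.25, 12.51 and 8.79 on the control arrays. Ng3 had 5.07, 12.33 and 13.06 on the rbf1 arrays, 12.41, 6.87 and 13.50 on the PSC arrays, and 7.77, 13.59 and 12.55 on the control arrays. Pig1 had 4.06, 10.83 and 10.92 on the rbf1 arrays, 9.80, 5.80 and 11.98 on the PSC arrays, and 6.86, 11.56 and 10.69 on the control arrays. All of them were low on rbf1 1, PSC 2 and control 1, so rbf1 3 was high and PSC 2 low, unlike in the glue genes, where rbf1 3 was low and PSC 2 in the middle. The probe sets of ng1 and ng2 could share signal, because the copies are near-identical and 1 further probe set is annotated to both. Ng4 stayed between 3.69 and 4.46.

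The mean of ng1, ng2, ng3 and Pig1, which were put together after their values had been seen, set the arrays out against the glue mean. The name pre-intermoult mean is used for it as a label only, since of these genes only Pig1 is named so. The time at which the ng genes are used was not tested. This mean was 4.55, 9.17 and 10.85 on the rbf1 arrays, 10.38, 5.31 and 11.12 on the PSC arrays, and 6.004, 11.91 and 9.90 on the control arrays. Rbf1 1 and control 1 were low in both sets, and rbf1 2, PSC 1, PSC 3, control 2 and control 3 were well above them in both. Rbf1 3 combined a low glue mean of 7.11 with a high pre-intermoult mean of 10.85, and PSC 2 combined a glue mean of 10.08 with a pre-intermoult mean of 5.31. Between rbf1 3 and rbf1 1, ng3 differed 254-fold, whereas Sgs3 differed 1.81-fold. No fold is given for ng1 and Pig1, which on rbf1 1 read 3.75 and 4.06, below the most common low value of 4.15. Over the 9 arrays r between both means was 0.607, and it was 0.175 without the 2 arrays farthest from the median glue level. Of the glue genes, Sgs4 was most like the pre-intermoult mean (r = 0.702) and Sgs8 least (r = 0.510).

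**Figure D4:**
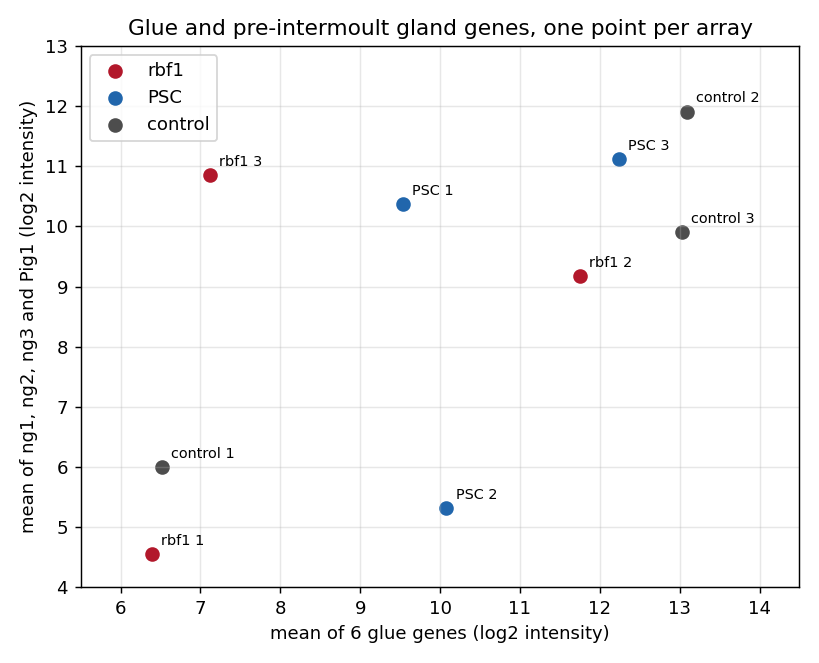
Mean log2 intensity of the 6 glue genes (horizontal axis) against that of ng1, ng2, ng3 and Pig1 (vertical axis), with 1 point per array coloured by group. Rbf1 3 lies at upper left (7.11, 10.85) and PSC 2 at lower middle (10.08, 5.31), away from a line through the other arrays.

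Other gland genes were set beside these values to relate them to attached salivary gland tissue. PH4alphaSG1 and PH4alphaSG2, prolyl hydroxylase genes of the gland, had r of 0.657 and 0.617 with the glue mean. PH4alphaSG2 had 5.76, 8.28 and 7.82 on the rbf1 arrays, 7.12, 5.53 and 9.50 on the PSC arrays, and 5.99, 8.33 and 7.25 on the control arrays. Like ng1, it was lowest on rbf1 1, PSC 2 and control 1. Fkh, the gene of the Forkhead factor of the gland, had 7.22, 7.60 and 7.52 on the rbf1 arrays, 6.91, 6.96 and 7.85 on the PSC arrays, and 7.50, 7.70 and 7.74 on the control arrays, a range of 0.94.

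Of 9 measured genes of gland identity, 3 had a range of at least 1: sage, PH4alphaSG1 and PH4alphaSG2. The list also holds sens and eyg, which act in the eye disc. Pip, a sulfotransferase gene of the list, was read from its brightest probe set (range 0.81), while dimmer ones reached a range of 2.33. Of 17 measured genes of the general secretory pathway none had a range of at least 1, with a median range of 0.18. Of 9 measured genes of the 71E puff, Eig71Ee alone had a range of at least 1. The other 8, late genes that the gland turns on at the start of metamorphosis, lay between 3.30 and 4.51 on all arrays. In whole-tissue RNA, more attached gland cells and more glue RNA per gland cell cannot be told apart. The part of attached gland in the glue levels was not tested.

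**Figure D5:**
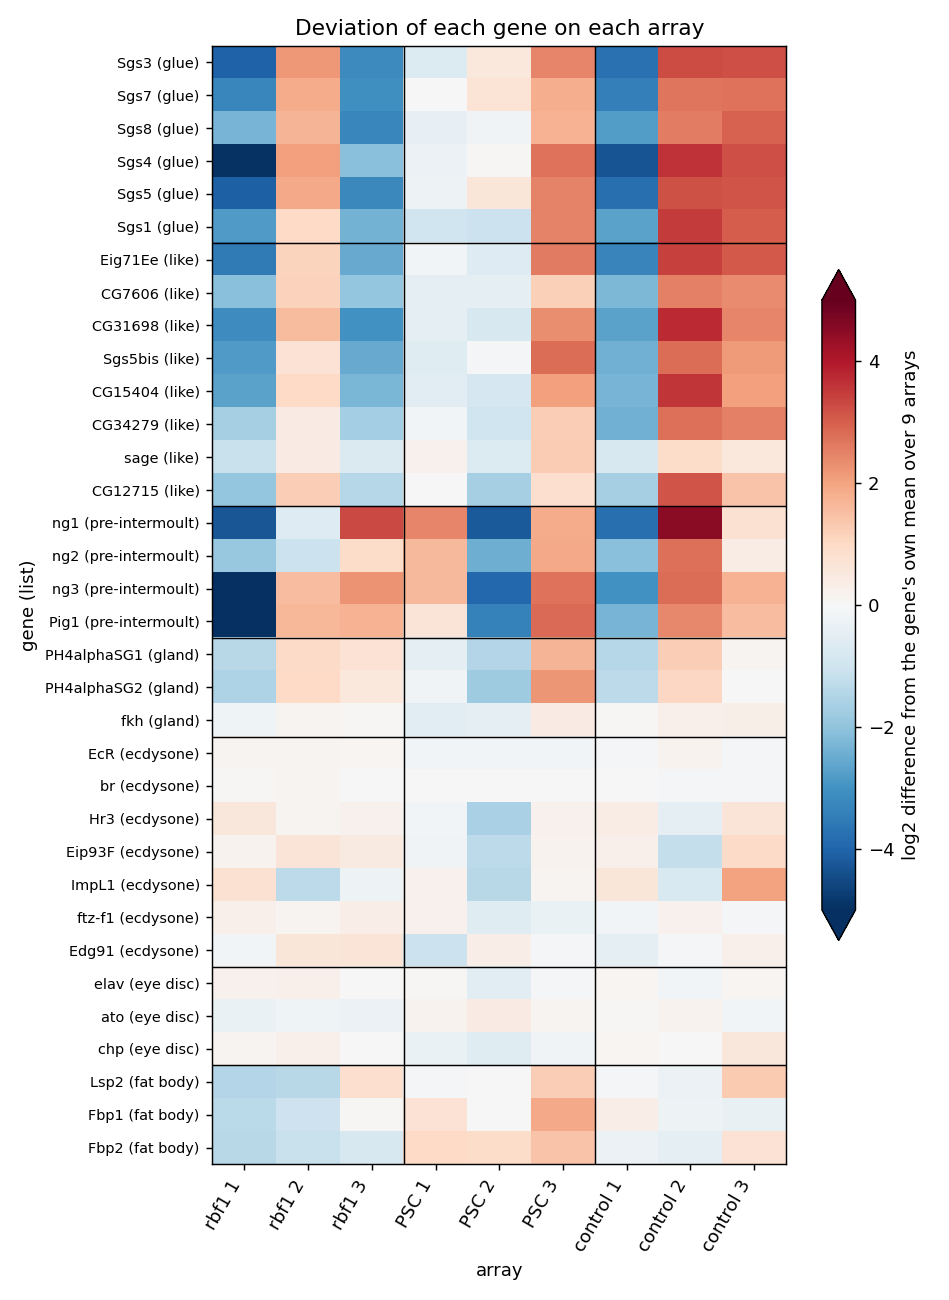
Difference of each gene (down the page, by list) from its own mean over the 9 arrays (across the page) as colour on a log2 scale that ends at 5 in each direction. The glue genes and the genes like them share 1 pattern, except that sage and CG12715 are also low on PSC 2. The genes ng1, ng2, ng3 and Pig1, labelled pre-intermoult, and PH4alphaSG2 share another in which rbf1 3 is high and PSC 2 low. The ecdysone and eye disc genes are pale.

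Ecdysone response genes, read as marks of larval stage, were set beside the glue levels. EcR, the ecdysone receptor gene, lay between 11.08 and 11.13 on the rbf1 arrays, between 10.84 and 10.87 on the PSC arrays and between 10.90 and 11.17 on the control arrays. Br, an early ecdysone response gene, had a range of 0.24. Hr3, a nuclear receptor gene that rises with the late larval ecdysone pulse, had 9.21, 8.77 and 8.85 on the rbf1 arrays, 8.51, 6.999 and 8.85 on the PSC arrays, and 9.001, 8.19 and 9.28 on the control arrays. Its lowest arrays were PSC 2 and control 2, with glue means of 10.08 and 13.10. Control 3 had the highest Hr3 and almost the same glue mean as control 2.

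ImpL1, an ecdysone-inducible gene of imaginal discs, had 9.69, 7.61 and 8.67 on the rbf1 arrays, 9.14, 7.51 and 9.04 on the PSC arrays, and 9.51, 8.16 and 10.91 on the control arrays. Eip93F, another ecdysone response gene, had 5.72, 6.21 and 6.0025 on the rbf1 arrays, 5.38, 4.26 and 5.75 on the PSC arrays, and 5.82, 4.35 and 6.51 on the control arrays. Both were low on PSC 2 and control 2 and highest on control 3. They parted on rbf1 2, where ImpL1 (7.61) was below its control 2 value (8.16) and Eip93F (6.21) was above all arrays but control 3. With the glue mean, r was -0.11 for ImpL1, -0.12 for Eip93F and -0.18 for Hr3. The genes with a range of at least 1 numbered 6 of the 26 ecdysone response genes measured, with Hr4, Eip78C and Edg91 as the others.

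Eye development gave a further view of stage, since photoreceptors are added behind a furrow that crosses the disc during the third instar. Elav, a gene of differentiated neurons, had 11.76, 11.82 and 11.56 on the rbf1 arrays, 11.60, 11.05 and 11.50 on the PSC arrays, and 11.65, 11.41 and 11.65 on the control arrays. Chp, the photoreceptor gene chaoptin, was lowest on PSC 2 (9.44) and highest on control 3 (10.61). Ato, the proneural gene of the furrow, was highest on PSC 2 (11.52). Over the whole lists, PSC 2, at a middle glue level, was the lowest array for 9 of 26 ecdysone response genes and the highest for 1. Hr3, Eip93F and ImpL1 were among the 9. Control 2 was the lowest for 6 and the highest for 1, and PSC 3 the lowest for 5 and the highest for 5. Among 13 furrow genes PSC 2 was the lowest for 1 and the highest for 5. Among 17 photoreceptor genes PSC 2 was the lowest for 3, elav, chp and pros, and the highest for 3, gl, boss and ro. These shares were not counted over all genes, so they are not read as a trait of the lists. Of the probe sets of ftz-f1, the brighter was lowest on PSC 2 and the other on PSC 3. Control 1, with the control group's lowest glue mean of 6.52, read 11.65 for elav, the same as control 3. Other genes varied in this: on control 1 and control 3, EcR read 10.92 and 10.90, chp 10.12 and 10.61, and ImpL1 9.51 and 10.91. The part of larval stage in the glue levels was not tested.

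Genes of other tissues that could come with the discs were read in the same way. Lsp2, the fat body storage protein gene, had 8.14, 8.22 and 10.45 on the rbf1 arrays, 9.49, 9.59 and 10.83 on the PSC arrays, and 9.49, 9.29 and 10.89 on the control arrays. It was thus high on rbf1 3, which was low for glue, and no higher on control 2 than on control 1. The fat body genes differed among themselves on rbf1 3, where apolpp was highest of the 9 arrays (8.87) and Mtp lowest (10.33). Fbp2 (7.60) and Obp99b (8.31) read lower there than on any PSC or control array. Of 8 measured fat body genes 6 had a range of at least 1, as did 5 of 12 haemocyte genes, 5 of 10 genes of trachea, cuticle and epidermis, 2 of 9 gut genes and 0 of 9 muscle genes. The median r of these lists with the glue mean lay between -0.075 for muscle and 0.354 for the fat body. For the list of ng1, ng2, ng3, ng4, Pig1 and Sgs5bis it was 0.586. The part of these tissues in the glue levels was not tested.

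Group tests with limma, adjusted over all 11983 genes at 0.05, were read for the lists that the choice of the glue genes did not use. In rbf1 against control 756 genes rose (6.31%) and 470 fell (3.92%). In PSC against control 170 rose (1.42%) and 285 fell (2.38%). In rbf1 against PSC 828 were higher (6.91%) and 438 lower (3.66%). The comparisons with control share the control arrays.

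None of the 6 genes ng1, ng2, ng3, ng4, Pig1 and Sgs5bis passed in any of these comparisons, adjusted or at an unadjusted p under 0.05. Their median difference was -1.07 for rbf1 minus control, -0.25 for PSC minus control and -0.69 for rbf1 minus PSC, against -0.0042, 0.0091 and -0.011 over all genes. For ng3, rbf1 minus control was -1.15 (SE 2.59), which limma gave an adjusted p of 0.842. Of the 9 gland identity genes 0 passed in each comparison, and at an unadjusted p under 0.05 sens and Papss did in rbf1 against control and 0 in the other comparisons. Without PSC 3, which had the highest fkh level, fkh passed in both comparisons with PSC. Of the 9 measured 71E genes only Eig71Eh passed, with -0.19 in rbf1 minus control (limma adjusted p = 0.0411). This call was lost without any 1 of the 9 arrays. Eig71Eh read 3.48 to 3.75, below the most common low value of 4.15.

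Of the 26 ecdysone response genes, Edg78E fell by 0.26 in rbf1 against control (limma adjusted p = 0.0336) and MsrA fell by 0.46 in PSC against control (limma adjusted p = 0.0173). MsrA was higher by 0.31 in rbf1 than in PSC (limma adjusted p = 0.0455). These calls were lost when some single arrays were left out. The Edg78E call held only without PSC 1 or PSC 3 when each array was left out in turn, and Edg78E read 4.27 to 4.68, near the most common low value. The MsrA call in PSC against control was lost without PSC 2, PSC 3, control 1 or control 2, and that in rbf1 against PSC held only without rbf1 3 or PSC 1. Hr3, Eip93F, ImpL1, ftz-f1, EcR and br passed in none with all arrays, with differences of -0.96 to 0.84. Without control 2, EcR passed in rbf1 against control and in rbf1 against PSC, and without PSC 1 ftz-f1 passed in rbf1 against PSC.

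Of 13 furrow genes, tsh rose and toy fell in rbf1 against control, 0 passed in PSC against control with 2 at an unadjusted p under 0.05, and ato and dac were lower and tsh higher in rbf1 than in PSC. The furrow calls of rbf1 against control became 1 without rbf1 2, which kept tsh. Of 17 photoreceptor genes, Appl and B-H1 rose and nrv3 fell in rbf1 against control, and Appl and B-H1 were higher and sev lower in rbf1 than in PSC. In PSC against control 0 passed with limma, with 4 at an unadjusted p under 0.05. B-H1 was lost in rbf1 against control without rbf1 1, rbf1 2, control 2 or control 3. In rbf1 against PSC, Appl alone passed without rbf1 1, rbf1 2 or PSC 3. Elav and chp did not pass with all arrays, and chp passed in rbf1 against PSC without control 3.

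The fat body genes Obp99b, Cyp4e2, fat-spondin and Mtp fell in rbf1 against control, 4 of 8, as did NimC2, PPO1 and PPO2 among 12 haemocyte genes. Of all genes 3.92% fell. The fat body count was 1 without rbf1 1, which kept Mtp, and 2 without rbf1 2. The haemocyte count was 1 without rbf1 1, rbf1 2 or control 2, which kept NimC2. Obp99b, a haemolymph odorant-binding protein gene, had 7.41, 7.55 and 8.31 on the rbf1 arrays, against 9.57, 8.80 and 9.94 on the control arrays. It fell by 1.68 (SE 0.37, limma adjusted p = 0.0247), and the groups did not overlap. Obp99b did not pass without rbf1 1, rbf1 2, control 1 or control 3. The muscle genes Mlp60A and TpnC73F fell too, and neither passed without rbf1 2 or control 1. In rbf1 against PSC the fat body genes Fbp2, Obp99b and Mtp were lower, with 1 to 4 calls when 1 array was left out. So were PPO1, PPO2 and NimC1, with 2 to 4 haemocyte calls, and TpnC73F, with 0 to 1 muscle calls. Cyp4e2 also fell in PSC against control, by 0.60 (limma adjusted p = 0.0189), and was lost without PSC 1 or any 1 control array.

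The list with the highest share of calls in rbf1 against control was that of trachea, cuticle and epidermis. There Lcp65Ae, dyl, kkv, knk, Twdlbeta and ect fell, 6 of 10, against 3.92% of all genes. Lcp65Ae read 4.45 to 4.90, near the most common low value of 4.15. The count was 3 without rbf1 1, rbf1 2 or rbf1 3, with dyl, ect and kkv kept each time, and 4 without control 2. In PSC against control dyl and Twdlbeta fell, and Twdlbeta was kept only without control 1. In rbf1 against PSC ect and kkv were lower. Mal-A1, a maltase gene of the gut list, fell by 1.93 in rbf1 against control (limma adjusted p = 0.0101) and fell by 2.15 in PSC against control (limma adjusted p = 0.0142), where it was lost without control 1.

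Over all lists but the glue genes, 23 of 145 genes passed in rbf1 against control (15.9%), against 10.2% of all genes. In PSC against control 5 of 145 passed (3.45%), against 3.8% of all genes, and in rbf1 against PSC 16 of 145 (11%), against 10.6%. The last 2 shares were near those of all genes. In rbf1 against control the 23 became 10 without rbf1 2, 12 without rbf1 1 and 15 without control 2. In PSC against control the 5 became 2 without control 2, and 3 without PSC 1, PSC 2 or control 1. In rbf1 against PSC the 16 became 8 without rbf1 2 and 9 without rbf1 1.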

How the data were processed

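RNA of 9 eye disc samples was measured on 1 array each. The authors summarised probes with RMA into log2 intensities, per the submitters' processing notes, and no RMA version is given in the sources used here. These lay between 2.86 and 14.85 and were used as deposited. Of 18952 probe sets, 183 controls were left out. By the probe annotation 13647 had 1 gene, 402 several and 4720 none. A gene was read from the probe set of 1 gene with the highest mean over the arrays, which was a choice for 1094 genes. Of 11983 identifiers, 11894 matched the RefSeq gene table (Release 6 plus ISO1 MT), which was used for symbols and gene order alone.

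Groups were compared with limma 3.58.1 in R 4.3.3 (group-means model over 9 arrays, eBayes, Benjamini-Hochberg over all genes, no filter), tested on simulated data. Replicates are biological per the labels. Likeness is Pearson's r with the mean of the 6 glue genes. The genes named include the 6, and the 15 most and 5 least like with a range of at least 1. Preset gland, ecdysone and eye genes are named too. Of the list members that vary by at least 1 or pass, only some are named. Further examples were chosen after their values were seen. The glue genes and all lists were chosen with earlier results of these data known. CrebA, toe, Eip74EF and Eip75B were not analysed here. Same-numbered replicates were not treated as pairs, since no label says that they were paired. Deviations correlated above 0.1 in 4 of 9 same-numbered pairs of arrays (range -0.44 to 0.59), which does not settle whether they share a batch. Alternatives were the mean of a gene's probe sets, centred arrays, genes above the median level, the replicate block, only the arrays compared, each array left out, medians, rank correlation, deviations from group means and each glue gene alone. The precision is limited by 3 arrays per group.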

Additional observations from a re-analysis of the deposited data

How the results depend on the processing

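Leaving out 1 array at a time, the mean of the 6 glue genes differed by -4.64 to -1.36 for rbf1 minus control, -2.45 to 0.84 for PSC minus control and -3.86 to -1.19 for rbf1 minus PSC. In rbf1 against control 787 to 1199 genes passed, against 1226 with all arrays, with 787 without rbf1 2. In PSC against control 250 to 389 passed, against 455, with 250 without PSC 2, 272 without PSC 1, 277 without control 1 and 289 without control 2. In rbf1 against PSC 843 to 1288 passed, against 1266, with 843 without rbf1 2 and also without PSC 1. Of the lists other than glue, 10 to 21 genes passed in rbf1 against control, 2 to 6 in PSC against control and 8 to 17 in rbf1 against PSC. With only the 6 arrays compared, 275 genes and 3 list genes passed in PSC against control. Fitted with the replicate block, 1306, 426 and 1315 genes passed in rbf1 against control, PSC against control and rbf1 against PSC, and 23, 5 and 14 list genes. The labels do not say whether equal numbers pair the arrays, and the correlations do not settle it. Of the 9 arrays, 4 correlated best with an array of their own number. Deviations of rbf1 1 correlated at r = 0.588 with control 1 and at 0.620 with PSC 2. Between 9 and 15 of the 15 most like genes were shared when 1 array was left out, with 9 without control 1, and 6 to 8 genes had r of at least 0.9. Without the 2 arrays farthest from the median glue level, an alternative chosen after seeing the data, 9 were shared. With genes above the median level alone, Sgs1 drops out, so the mean of the 6 has no value there. No other alternative moved a count by over 1.5 times. The cause of these shifts was not tested. On its dimmest arrays Sgs1 stood close to the most common low value, 4.15, which limits its lower end.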

Other observations

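Beyond ng1, ng2, ng3 and Pig1, 19 genes had r of at least 0.9 with the mean of these 4 over the 9 arrays, and 0 of the 19 had r of at least 0.9 with the glue mean. The highest were CG11300 (r = 0.989), CG43117 (r = 0.989) and the mucin gene Muc68Ca (r = 0.968), named after their values were seen. Muc68Ca had 3.50, 10.92 and 11.24 on the rbf1 arrays, 9.87, 4.07 and 11.73 on the PSC arrays, and 6.16, 11.74 and 11.12 on the control arrays. It was low on rbf1 1, PSC 2 and control 1, as ng1, ng2, ng3 and Pig1 were. Of 70 genes with a range of at least 5, 11 had r of at least 0.9 with the glue mean, the 6 glue genes among them. With the pre-intermoult mean 21 had it, genes that make up that mean among them, and 38 had it with neither.

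Of 5122 probe sets annotated to several genes or to none, 0 had r of at least 0.9 with the glue mean and a range of at least 1. The probe set annotated to both lcs and sesB had r = 0.735 and a range of 7.66. It read 5.44, 11.32 and 11.21 on the rbf1 arrays, 11.21, 6.80 and 12.89 on the PSC arrays, and 8.13, 13.10 and 12.98 on the control arrays, so it was lowest on rbf1 1 and PSC 2. Of the 10 probe sets annotated to pip, the sulfotransferase gene Pipe, a pair had ranges of 2.33 and 2.07, both highest on control 2, while the brightest had a range of 0.81.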
